A study of Saccharomyces cerevisiae with 51 samples.

Results

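The binding of Sub1 to chromatin was compared between cells held for 5 min in 1 M sorbitol and cells handled the same way without sorbitol, in 1 ChIP-Seq library each. The members are the 2 libraries of 3HA-tagged Sub1 whose titles and descriptions give these conditions, out of 51 samples in the series (38 of Bar-Seq, 8 of RNA-Seq, and 5 of ChIP-Seq). Both came from yAS420, a haploid budding yeast strain with the genotype *SUB1*-3HA::*kanMX leu2*Δ0 *lys2*Δ0 *ura3*Δ0 *his3*Δ1 *met15 bar1*::p*FUS1*-GFP-*LEU2*. It is 1 spore of a transformed diploid, carries the tag at the C terminus of the native gene, and kept some *SUB1* function according to the methods. The library used as background came from untagged yAS38 (*leu2*Δ0 *met15*Δ0 *ura3*Δ0 *his3*Δ1 *bar1*::p*FUS1*-GFP-*LEU2*), which was grown vegetatively and never moved to fresh medium. The other libraries of yAS420 were used for reference: untreated cells (no α-factor) and cells given 10 nM α-factor for 30 min. The 8 RNA-Seq libraries came from untagged spores of another transformed diploid, the wild type yAS418 (*lys2*Δ0 *ura3*Δ0 *his3*Δ1 *met15 bar1*::p*FUS1*-GFP-*LEU2*) and yAS395, which carries *sub1*Δ::*kanMX* as well. Each strain gave 1 library in 1 M sorbitol and 1 in fresh medium (both 45 min), 1 with 10 nM α-factor (45 min), and 1 untreated. All strains share the GFP reporter in place of *BAR1*, the gene of the protease that degrades α-factor.

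The labels of the sorbitol pair disagree with themselves. The titles and descriptions, which were used here, give sorbitol to one library, while the treatment text gives it to the other, so that every direction below would turn around if the treatment text were right. The counts given below would then exchange places, with 1744 bins bound without sorbitol, 15726 in sorbitol, and 1538 in both. The untreated cells, which had no sorbitol under either reading, had 13822 bound bins and so were nearer to the library titled as the control. No value in the ChIP-Seq files identifies the treated library independently of the result.

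Sub1 is the yeast relative of the human transcription coactivator PC4, a small protein that binds single-stranded DNA. It works with RNA polymerase II at the promoters of protein-coding genes and has also been tied to genes transcribed by RNA polymerase III, such as those of the tRNAs. High sorbitol draws water out of the cell and switches on the HOG pathway, in which the kinase Hog1 turns on genes for glycerol synthesis and stress protection. The question addressed by the pair is where Sub1 stays on the chromosomes in the first minutes of that stress.

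Each library held between 24964958 and 48775730 recovered reads, with 36317689 without sorbitol and 29839358 in sorbitol, and its median 100-bp bin held 157 to 226 reads. Signal is given as scaled signal (the value of a bin divided by the median listed bin of its library) or as times untagged (that value over the scaled value of the same bin in the untagged library). A bin at 2 times untagged or more is called bound. There is 1 library per condition and no external standard, so differences have no replicate check, no test across bins is given, and levels are relative to the median bin. Intervals are exact 95% binomial (Clopper-Pearson) intervals on the reads and cover counting error only. They are too narrow where identical reads were counted repeatedly, as in the bins that held up to 57998 reads without sorbitol against 200 possible start positions and strands.

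Tagged Sub1 covered much less of the genome in sorbitol. Of 121581 bins, 15726 (12.9%) were bound without sorbitol and 1744 (1.43%) in sorbitol, while 13822 (11.4%) were bound in the untreated cells. Without sorbitol 532 bins reached 10 times untagged, and in sorbitol 144 did. The bins bound without sorbitol held 36.5% of all reads in that library, 20.1% in the sorbitol library, 35.8% in the untreated one, and 14.3% in the untagged one. These bins were picked as high in the control over the untagged library. Bins bound in the untreated cells, outside plasmid and mitochondrial DNA, were not picked on the pair. They held 34.9% of the reads without sorbitol, 17.8% in sorbitol, 35.6% in the untreated cells, and 14.9% in the untagged library. By these shares the sorbitol library lay nearer to the untagged library than to either tagged library without sorbitol.

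The ratio of sorbitol to control had a median of 0.463 over the bound bins, with quartiles of 0.373 and 0.549. Over all 121562 bins with both values it had a median of 0.990, with quartiles of 0.717 and 1.22. In the same bound bins, the untreated library over the control had a median of 0.925, with quartiles of 0.852 and 1.01. Ratios at or below 0.5 were found in 8.9% of all bins and in 61.6% of the bound bins, against 0.0387% and 0.273% for the untreated library over the control. Ratios of 2 or more were found in 1232 (1.01%) of all bins and in 32 of the bound bins, against 0.0165% of all bins for the untreated library over the control. Only 325 of the 1232 were among the 120354 chromosomal bins with both values, which are defined below. The untreated cells are no replicate of the control, since they were not moved to fresh medium, and they give only the size of differences between tagged libraries without sorbitol.

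Of the bins bound without sorbitol, 1538 (9.78%) were also bound in sorbitol (kept), 14188 were not (lost), and 206 bins were bound in sorbitol alone (gained). With libraries scaled to total reads instead of the median bin, 5.25% of bins were bound without sorbitol, 18.1% of these were kept, and 23.2% of the bins bound in sorbitol were gained, against 11.8% with the median bin. Part of the kept and gained bins did not lie in ordinary chromosomal DNA. All 64 bins of the 2-micron plasmid, which yeast carries in many copies, counted as kept: its median scaled signal was 2.50 in the untagged library, 56.5 without sorbitol, and 57.8 in sorbitol. A difference in plasmid copies between the strains and binding of Sub1 cannot be told apart there. Mitochondrial DNA added 23 gained bins and no kept bin. Its median scaled signal was 3.87 in the untagged library, 2.37 without sorbitol, 6.33 in sorbitol, and 2.70 in the untreated cells.

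A further 48 bins lay in 3 runs that stood out as flat blocks with sharp edges in the sorbitol library. The run of 11 bins on chromosome V, from listed position 116000 to 117000 of SacCer2, was low in the untagged library (median 0.322), the control (0.215), and the untreated cells (0.197), and had no RNA read in any of 8 RNA-Seq libraries. It was taken as *URA3*, which encodes an enzyme of uracil synthesis, is deleted in both strains, and lies on that chromosome. In sorbitol its median scaled signal was 11.0, next to bins at 0.759 and 1.01 on its sides, and in the α-factor library it was 1.40. The runs on chromosome XII from 898100 to 899700 and from 902700 to 904600 had medians of 12.0 and 11.8 in sorbitol against 2.56 and 1.62 in the control. In the α-factor library they had 3.56 and 3.06. The excess over the libraries without treatment in the α-factor library was 11.1%, 12.6%, and 13.6% of that in the sorbitol library for the 3 runs. Since *URA3* is deleted in these cells, the values there cannot be read as binding to the chromosome, and the source of the 3 runs was not tested.

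With these blocks, the 2-micron plasmid, mitochondrial DNA, and the bins above 5 in the untagged library set aside, 120373 chromosomal bins remained. Among them 15571 were bound without sorbitol and 1599 in sorbitol, with 1452 kept (9.33%), 14119 lost, and 147 gained, and the median ratio of bound bins was 0.463. The region counts, height classes, and RNA comparisons that follow were made over these bins. The choice to set them aside was made after the values were seen.

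The labelled genotypes were checked at 3 loci. At the *URA3* run, the control (median 0.215) and the untreated library (0.197) of yAS420 were low, as was the untagged library (0.322), whose strain has the same *ura3*Δ0 label. These values stood well above those of the deleted *LYS2* run given below, so some signal was present there in every ChIP-Seq library. The sorbitol and α-factor libraries of yAS420 held more, as given above, and the source of the signal was not tested in any library. The other 2 loci followed their labels. A run of 45 bins on chromosome II, from 469800 to 474200, was at a median of 1.02 in the untagged library and between 0.0108 and 0.0265 in the 4 tagged libraries; *LYS2*, which lies on that chromosome and encodes an enzyme of lysine synthesis, is deleted in yAS420 and not in yAS38. The RNA-Seq strains also lack it, and no RNA read was listed there in their 8 libraries. At the *SUB1* locus (chromosome XIII, 348700 to 349500), RNA of the 9 bins came to 3493 to 4409 reads per wild-type library, against 2 to 4 reads per *sub1*Δ library.

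Signal was lower in sorbitol in every class of bound bins, whatever its height. To keep the choice of bins apart from the pair compared, bins were grouped by their level in the untreated cells. Where that level was 2 to 3 times untagged (9247 bins), the median was 2.43 times untagged in the control and 1.18 in sorbitol. At 3 to 5 times (3070 bins) the medians were 3.75 and 1.34, at 5 to 10 times (928 bins) 6.47 and 1.73, at 10 to 20 times (242 bins) 14.8 and 1.92, and from 20 times (148 bins) 33.3 and 3.07. The ratio of sorbitol to control had medians of 0.487, 0.354, 0.250, 0.130, and 0.0870 in these classes, but it includes the untagged level, which weighs most in low bins. With the untagged signal taken from both sums, the sorbitol library held 16.4%, 23.2%, 25.9%, 14.2%, and 8.23% of the control signal, so that the share retained did not follow height in 1 direction. The share of bins that stayed at 2 times untagged or more was higher in each higher class: 3.06%, 17.3%, 42.7%, 47.1%, and 73.6%. In the class of 5 to 10 times, the quartiles in sorbitol were 1.27 and 3.19, a wide spread next to those of 1.06 and 1.33 at 2 to 3 times.

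**Figure D1:**
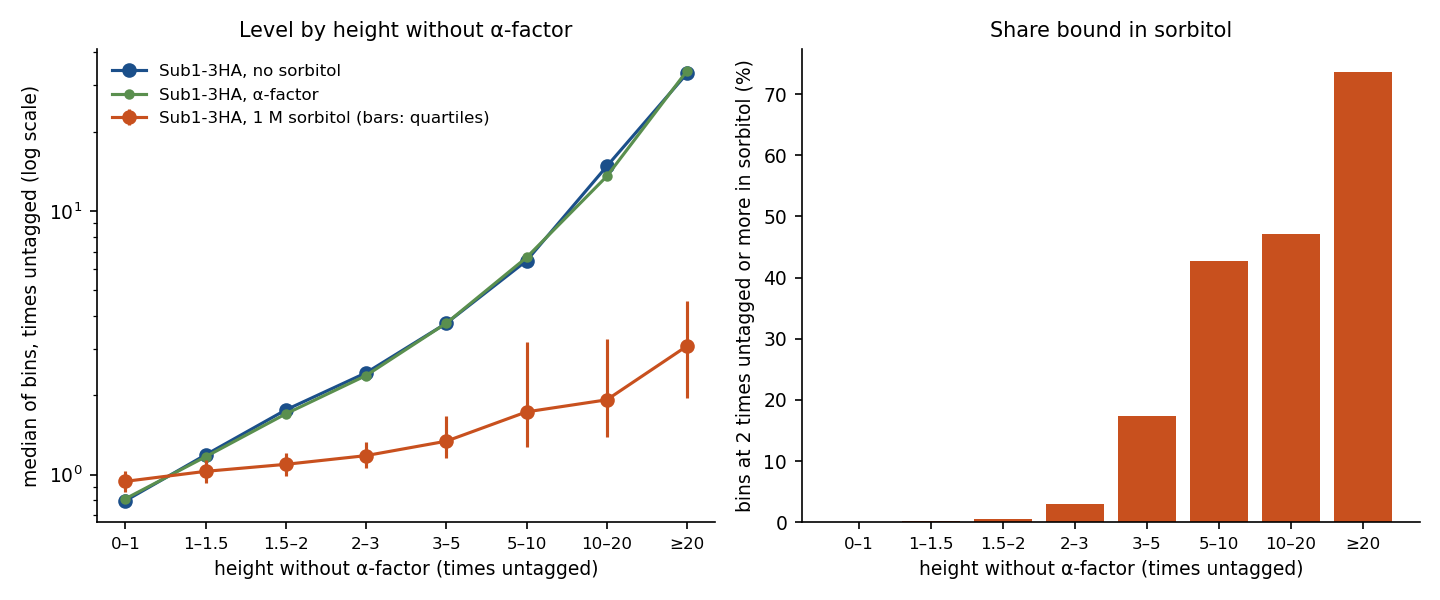
Chromosomal bins grouped by their height without α-factor (times untagged, x axis). Left, median level of each class without sorbitol, with α-factor, and in 1 M sorbitol (log axis; bars for sorbitol are the quartiles over bins); right, share of bins at 2 times untagged or more in sorbitol. The control climbs from 0.795 to 33.3 times untagged, and the sorbitol library only from 0.943 to 3.07.

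Adjacent bound bins formed 4622 regions without sorbitol and 581 in sorbitol. Of the 581 regions in sorbitol, 92.3% held a bin that was bound without sorbitol; of the 4622, 11.3% held a bin bound in sorbitol, and 81.7% a bin bound in the untreated cells. Signal retained was defined at the summit bin as the sorbitol signal over the control signal after the untagged signal was taken from both. Its median over the 4622 regions was 13.9%, with quartiles of 6.44% and 24.8%. In the 180 regions that reached 10 times untagged without sorbitol, the median was 7.27%, and 118 of them retained less than 10%.

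Regions called in the untreated library at 4 times untagged or more fell into unequal groups. There were 756 such regions with a control signal above the untagged one, and 514 of them (68.0%) retained less than 20%. Another 150 (19.8%) retained more than 50%, and 92 lay between. The retained shares did not spread evenly: 328 regions lay between 0 and 10% and 168 between 10 and 20%, then 38, 24, and 30 in the next steps of 10%, and 33 between 50 and 60%. These limits were set after the values were seen and cut a continuous range.

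In the untreated library, the 150 regions that retained more than 50% had a median of 5.76 times untagged. It was 5.63 for the 514 regions under 20% and 5.50 for the 92 between. In the control, the 150 regions had the lowest median of these groups. Their median was 5.17 times untagged without sorbitol (quartiles 4.21 and 6.75) and 4.33 in sorbitol (3.59 and 5.37). The 514 regions under 20% had medians of 6.35 and 1.46. Both groups were 6 bins wide at the median and were found on all 16 chromosomes, the 150 with 3 to 21 on each. They differed in the untagged library, whose median scaled signal was 1.21 at the 150 regions and 0.956 at the 514. The control stood at 0.874 of the untreated library at the summits of the first group and at 1.11 in the second, and the part of this gap in the split was not tested. RNA was not used to form the groups. Wild-type RNA without sorbitol was below 10 in the summit bin of 69 of the 150 regions (46.0%), of 100 of the 514 (19.5%), and of 9.29% of all chromosomal bins. The RNA was enriched for poly(A), and whether the 150 regions lie at genes of other RNAs, such as tRNAs, was not tested, because no annotation of SacCer2 was used.

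**Figure D2:**
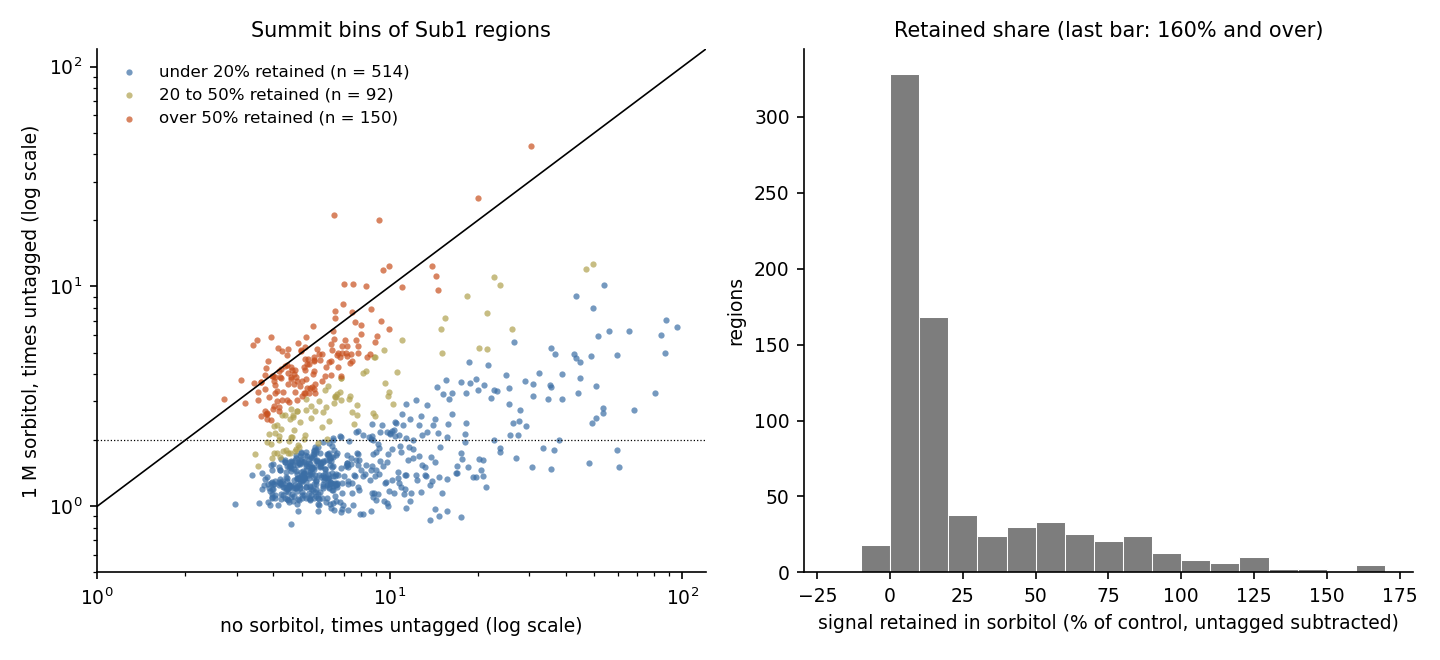
Left, summit bins of the 756 regions called without α-factor at 4 times untagged or more, without sorbitol (x axis) and in sorbitol (y axis), both in times untagged on log axes; the solid line marks equal levels and the dotted line 2 times untagged. Right, the number of regions by signal retained in sorbitol. Most points lie far below the line of equal levels at 1 to 2 times untagged in sorbitol, and 150 regions that retained more than 50% form a band along that line.

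The shape of the signal changed little where it remained. Around 757 summits picked in the untreated library, the mean scaled signal at the summit was 11.0 without sorbitol, 2.90 in sorbitol, 9.96 in the untreated cells, 12.1 with α-factor, and 1.03 in the untagged library. At 500 bp to the right it was 1.84, 1.13, 1.76, 1.86, and 1.01. The width at the middle of the height was 300 bp in all 4 tagged libraries. In 142 regions that reached 4 times untagged in both libraries of the pair, the summits lay within 100 bp of each other in 95.1%, against 98.2% of 707 regions for the control and the untreated library. The second summit was sought only within the bounds of the control region, so a peak shifted beyond them could not be seen. Around 156 summits picked in the sorbitol library, the control still stood higher in the mean, at 16.5 against 7.34. The medians at these summits lay closer, at 7.38 without sorbitol and 6.17 in sorbitol.

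**Figure D3:**
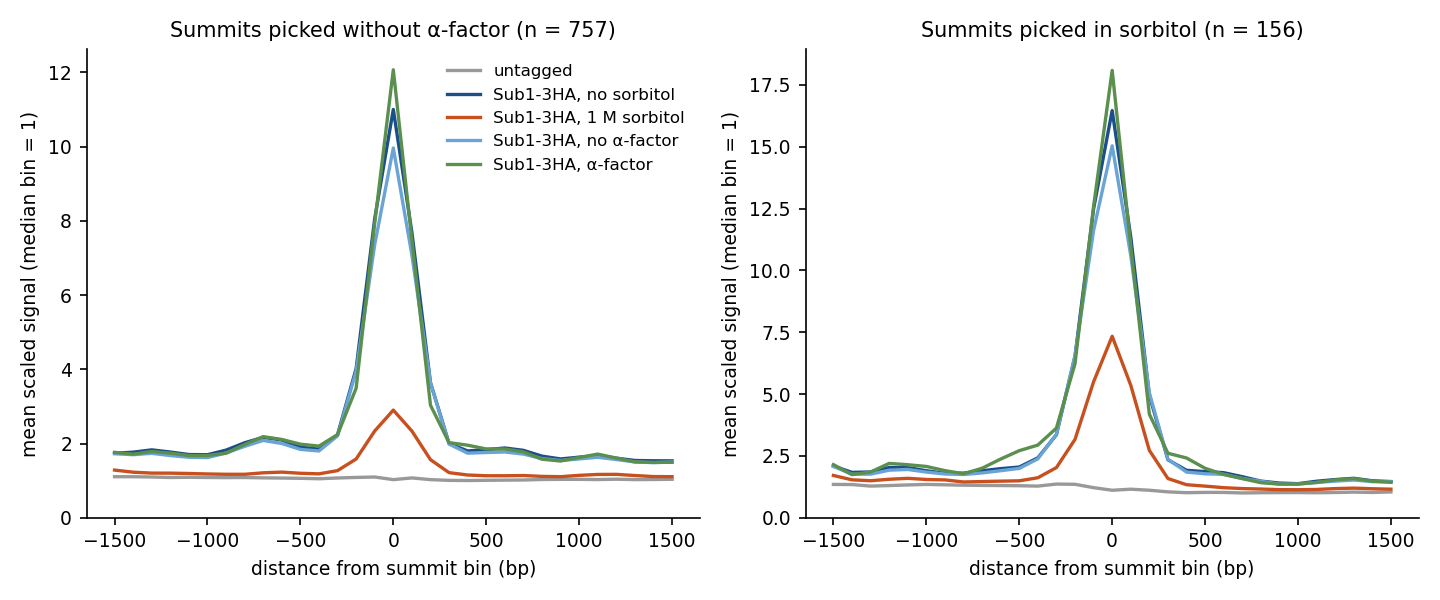
Mean scaled signal (median bin = 1, y axis) by distance from the summit bin (bp, x axis) in the 5 ChIP-Seq libraries, around 757 summits picked in the untreated library (left) and 156 picked in the sorbitol library (right). The sorbitol library peaks at the same place as the other tagged libraries, at 2.90 and 7.34, and the untagged library is flat.

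The strongest sites of the control lost most of their signal in sorbitol. Their ratios could fall lower than those of weaker sites, because the ratio includes the untagged level. The highest region lay at the right end of chromosome VIII with its summit bin at 554200, where the 5 libraries held 217 (untagged), 21435 (no sorbitol), 1561 (sorbitol), 15845 (untreated), and 35471 reads (α-factor). It stood at 95.6 times untagged without sorbitol and 6.51 in sorbitol, a ratio of 0.0681 (0.0646 to 0.0717). A run of RNA began in the summit bin and went on to its right. It held the largest RNA increase in *sub1*Δ on that chromosome (3.19 on the log2 scale with 20 added to each value, at 556100). From this it was taken as *IMD2*, the gene for an IMP dehydrogenase of GTP synthesis that the study names as raised in *sub1*Δ. The mean RNA of the 1 kb to the right was 247 without sorbitol and 119 in sorbitol in the wild type. The loss covered the start of the RNA run: wild-type RNA without sorbitol was 0 at 554100 and 110 in the summit bin at 554200. At 554400, where that RNA was 209, the scaled ChIP signal went from 16.4 to 1.88, and at 554500 from 3.58 to 1.08. Further along the RNA, from 554800 to 555700, it was 0.726 to 0.957 without sorbitol and 0.804 to 1.16 in sorbitol.

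The other 9 of the 10 highest regions stood at 59.5 to 87.9 times untagged in the control and at 1.51 to 7.05 in sorbitol. The summit at 228500 of chromosome X had 16720 reads without sorbitol and 1435 in sorbitol, a ratio of 0.0802 (0.0760 to 0.0847). Those at 1489900 of chromosome IV and 883900 of chromosome VII had ratios of 0.0569 and 0.0712. The region on chromosome VII borders the most abundant RNA in this set, with a mean of 27439 over the 1 kb to its left without sorbitol and 33530 in sorbitol. Highly transcribed flanks were found at 4 others of the 10 (9900 to 16709 to the right of the sites at 477600 of II, 451200 of VIII, and 71700 of I, and 3317 to the left of 370200 of XII), and their RNA was 0.932 to 1.48 times as high in sorbitol. In none of the 10 did the sorbitol level come near that of a tagged library without sorbitol.

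**Figure D4:**
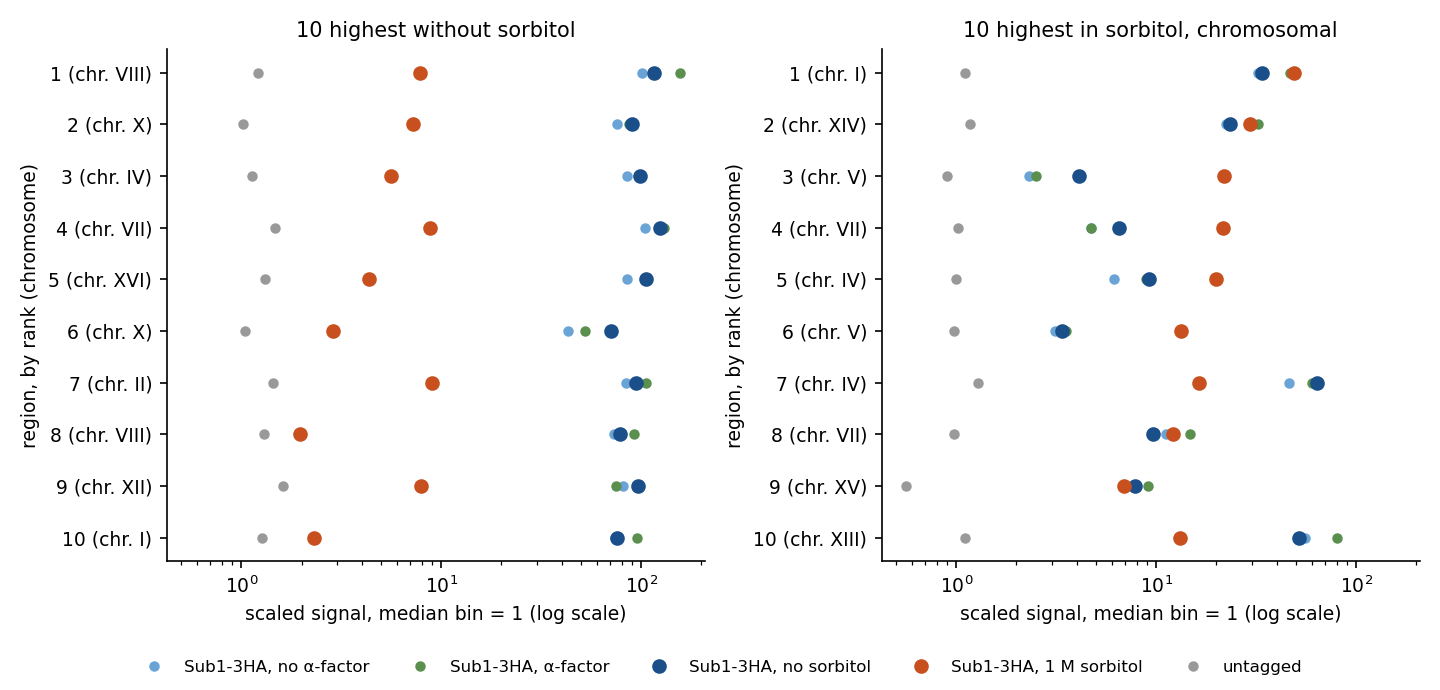
Scaled signal (median bin = 1, log x axis) of the summit bin in the 5 ChIP-Seq libraries for the 10 highest regions without sorbitol (left) and the 10 highest chromosomal regions in sorbitol (right), in order of height. On the left the sorbitol points lie 10.5 to 40.1-fold below the control; on the right the points of 7 regions lie above the control.

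Among the 182 regions that reached 10 times untagged in the control when no bins were set aside, the lowest ratios were found at 5 strong sites. At 451200 of chromosome VIII the signal went from 60.6 times untagged (14586 reads) to 1.51 (389 reads), a ratio of 0.0249 (0.0225 to 0.0276), which was 40.1-fold lower. The sites at 71700 of chromosome I, 164300 of XIII, 173100 of X, and 821700 of XVI followed with ratios of 0.0304, 0.0329, 0.0404, and 0.0408. At these 5 sites the untreated library stood at 41.5 to 64.8 times untagged, and the sorbitol library at 1.51 to 3.29. Ratios this low could hardly arise at weaker sites, since the untagged level is part of the ratio, so the list does not rank the loss itself. At 636700 of XII, a weaker site, the level went from 17.5 to 0.889 times untagged.

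Of the 5 highest ratios in the same set, 2 belonged to regions that were higher in sorbitol and 3 to regions that were moderately lower. At 141500 of chromosome I the summit held 200 (untagged), 6255 (no sorbitol), 9680 (sorbitol), 5059 (untreated), and 10497 reads (α-factor). That was 30.3 times untagged in the control and 43.8 in sorbitol, a ratio of 1.45 (1.40 to 1.49), and it was the highest chromosomal site in sorbitol outside the raised blocks. The α-factor library stood at 41.8, so that a level nearly as high was also seen without sorbitol. A smaller peak of the control about 600 bp to its right was not kept at that level, as the plot of single sites shows. At 619700 of chromosome XIV the levels were 20.1 and 25.3, with a ratio of 1.26 (1.21 to 1.31) and 27.7 with α-factor. The regions at 355100 of V, 877800 of XV, and 774700 of XIII had ratios of 0.900, 0.885, and 0.781. The last of these stood at 14.3 in the control and 6.25 in the untreated cells, a wider gap than most sites showed between those libraries.

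A few sites had more signal in sorbitol than in any other tagged library. The 5 largest ratios among regions bound in sorbitol included, beside 2 other sites, the 3 raised blocks described above, at 47.0 (34.8 to 65.1), 18.5 (16.1 to 21.5), and 6.87 (6.24 to 7.58). The source of the blocks was not tested, and they are not counted here as Sub1 sites. The other 2 regions were 9 bins wide on chromosome III and 6 bins wide on V. At 50500 of III the reads were 141 (untagged), 235 (no sorbitol), 1373 (sorbitol), 116 (untreated), and 155 (α-factor), a ratio of 5.46 (4.75 to 6.30). At 280800 of chromosome V they were 162, 764, 4347, 364, and 568, which put the site at 24.3 times untagged in sorbitol against 4.56 in the control, a ratio of 5.32 (4.92 to 5.75). The mean RNA of the 1 kb to the left of this site was 433 without sorbitol and 1536 in sorbitol in the wild type, 3.55 times as high, and that to its right was 0.925 times as high.

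Outside the blocks, the same order went on with summits at 78700 of III (ratio 5.26), 364600 of V (3.90), and 428000 of VII (3.29). These stood at 1.84, 3.49, and 6.43 times untagged in the control and 9.69, 13.6, and 21.2 in sorbitol. Their flanks did not share a change in RNA: at 428000 of VII the RNA to the left was 1.34 times as high in sorbitol and that to the right 0.690 times, and at 78700 of III both sides were lower, at 0.576 and 0.662 times. The remaining 5 of the 10 largest chromosomal ratios were weak, at 2.04 to 2.85 times untagged in sorbitol, and 4 of them were single bins within 20 kb of a chromosome end.

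Some of the gained signal spread over more than a peak. The widest region in sorbitol ran from 411600 to 413200 on chromosome IV. Its summit at 411700 stood at 9.21 times untagged in the control and 20.0 in sorbitol, a ratio of 2.17 (2.05 to 2.29), and 12 bins between 412000 and 413200 that were not bound in the control were bound in sorbitol, with median scaled signals of 1.25 and 2.75. RNA over those bins had a mean of 890 without sorbitol and 1289 in sorbitol. On chromosome XII, 16 gained bins lay between 88900 and 90600, with medians of 0.917 in the control and 2.36 in sorbitol, next to a peak at 88600 that stood at 6.98 and 11.2 times untagged. RNA over those bins was lower in sorbitol, with means of 636 and 482. In both cases the untreated and the α-factor library were at 0.955 to 1.19.

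**Figure D5:**
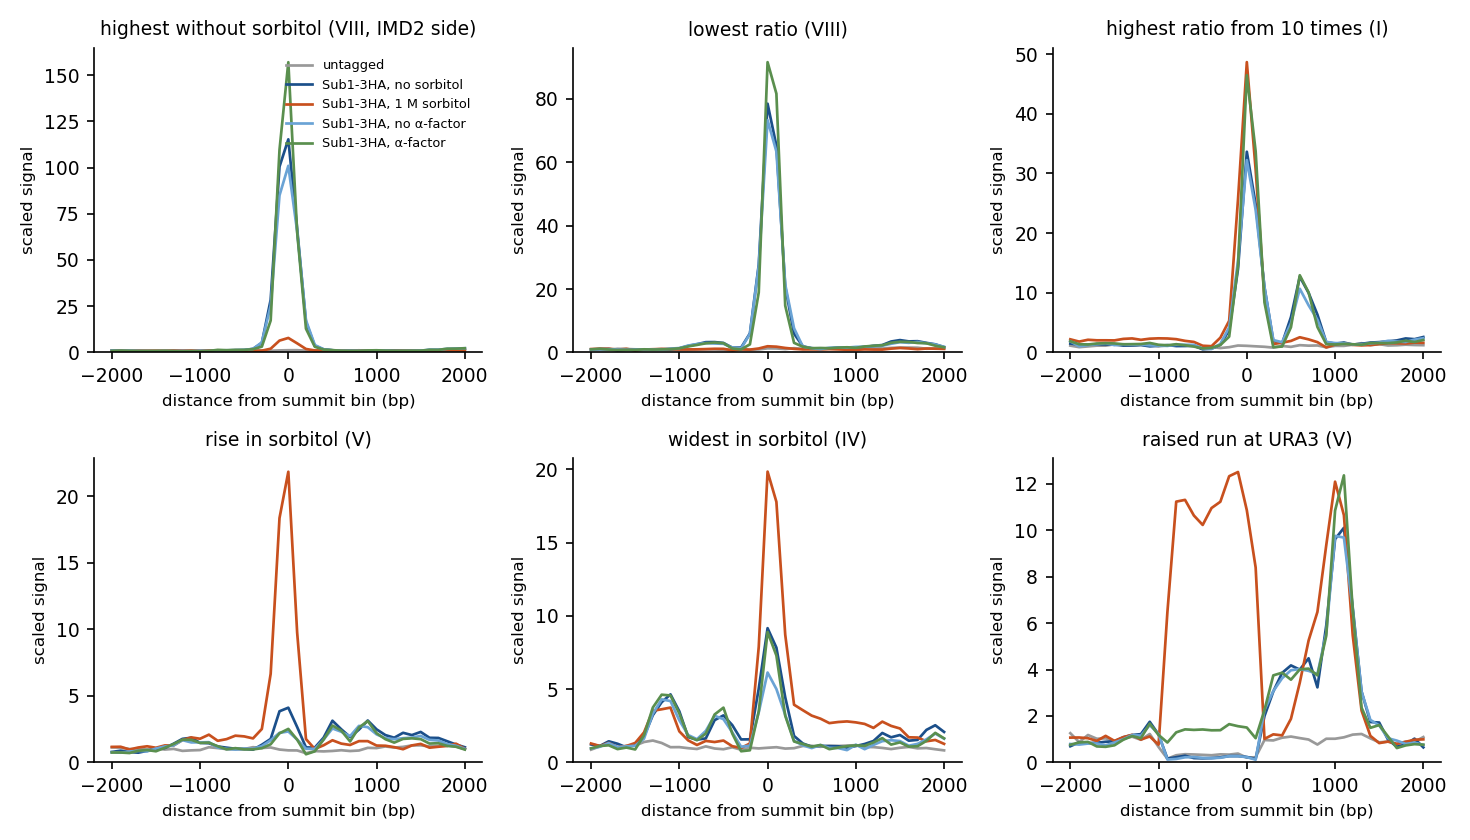
Scaled signal (median bin = 1, y axis) by distance from the summit bin (bp, x axis) at 6 sites in the 5 ChIP-Seq libraries. The site at the start of the RNA taken as *IMD2* and the site of the lowest ratio lost nearly all signal in sorbitol. The site on chromosome I kept its main peak, and the sites on V and IV were higher in sorbitol. The run at *URA3* was a flat block with steep edges.

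At the *SUB1* gene itself, peaks on both sides of its RNA were lower in sorbitol. To the right of the bins lost in *sub1*Δ, the bin at 349800 held a scaled signal of 4.59 without sorbitol, 1.37 in sorbitol, 3.76 in the untreated cells, 4.43 with α-factor, and 1.06 in the untagged library. By the R64 gene order *SUB1* (YMR039C) is read towards *CCS1*, a chaperone gene for copper delivery, so this is the side of its start. On the other side, where the tag was inserted, the bin at 348500 went from 3.70 to 1.07. Over the transcribed bins from 348700 to 349300 the signal was between 1.06 and 1.44 without sorbitol and between 1.01 and 1.25 in sorbitol. In the last 2 bins of that run, next to the peak on the right, it went from 2.01 to 1.28 (349400) and from 2.55 to 1.66 (349500). *SUB1* RNA in the wild type was 3493 reads without sorbitol and 4060 in sorbitol over the 9 bins.

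The change in binding was set beside the RNA of the wild type (yAS418), which was taken after 45 min in sorbitol rather than 5, in another strain without the tag. Chromosomal bins were classed by the mean RNA in a window reaching 500 bp to each side. Bins whose window had RNA at least 2-fold higher in sorbitol numbered 1102; 179 of them were bound without sorbitol and 25 of those were kept (13.97%), with a median ratio of 0.516. Where RNA was less than 2-fold changed, 9313 of 68760 bins were bound and 806 kept (8.65%), with a median ratio of 0.458. Where RNA was at least 2-fold lower, 266 of 1131 bins were bound and 45 kept (16.9%), with a median ratio of 0.355; these bins also stood higher in the control, with a median scaled signal of 3.36 against 2.55. In the 39 bound bins with RNA 4-fold or more higher, which form 12 runs, 12 bins in 4 runs were kept and the median ratio was 0.579. With RNA of the untreated wild type as the base instead, the median ratio was 0.507 where RNA was at least 2-fold higher in sorbitol. Where it was at least 2-fold lower, the median ratio was then 0.414.

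Gained bins were also set beside the RNA. Of the 104 gained bins whose window reached the median RNA of 99.4 in either condition, 13 (12.5%) had RNA at least 2-fold higher in sorbitol and 1 had it at least 2-fold lower. Over all 70993 such bins the shares were 1.55% and 1.59%, and for the 876 kept bins they were 2.85% and 5.14%. Neighbouring bins share windows and peaks, so these counts describe few places. By RNA level without sorbitol, 12.6% of bins in the lowest of 5 equal classes and 17.8% in the highest were bound in the control, and 12.0% and 10.9% of those were kept, against 7.12% to 8.22% in the 3 classes between. The median ratio lay between 0.440 and 0.476 in all of them.

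The median ratio was similar along the genome, whereas the share kept was not. Across the 16 chromosomes, the median ratio of bound bins lay between 0.447 (XV) and 0.498 (VI), and the share kept between 7.48% (II) and 15.0% (VI). Within 20 kb of a chromosome end, 305 of 6400 bins (4.77%) were bound in the control, against 13.4% of the other chromosomal bins, and the median ratio was 0.465. Only 7 of these 305 bins were kept (2.30%), against 1445 of 15266 (9.47%) elsewhere on the chromosomes. The 7 include bins of the peak at 554200 of chromosome VIII. The share kept depended on height, and the heights of bound bins near the ends were not set beside those elsewhere. The longest run of very high untagged signal, 176 bins on chromosome XII between 451400 and 468900, had a median scaled signal of 77.9 in the untagged library, 120 without sorbitol, 66.0 in sorbitol, 154 in the untreated cells, and 204 with α-factor. There too the sorbitol library was the tagged library nearest to the untagged one.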

How the data were processed

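Single-end ChIP-Seq and RNA-Seq reads were aligned by the authors (Bowtie2, genome build SacCer2), and the deposited signal counts them in 100-bp bins, multiplied by 1 factor per library so that libraries of a kind share a total. The version, the handling of duplicate and multi-mapping reads, and any read extension are not given in the sources used here. Dividing by the smallest value of a library gave whole numbers (100% of values, within 0.01), which were taken as reads. Bins without reads are not listed, and strand is not separated. ChIP-Seq signal was divided by the median listed bin and set against the untagged library. A missing tagged bin counted as 0. Python 3.11.15, numpy 2.4.6, pandas 2.3.3, and scipy 1.17.1 were used. The scaling, the calling of bound bins, and the signal retained were checked on simulated single bins with known levels and no repeated reads. The forming of regions, the profiles, and the RNA classes were not simulated.

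Regions were named by a rule: the 10 highest without sorbitol, the 10 highest in sorbitol, the 5 highest and 5 lowest ratios from 10 times untagged, the 5 largest ratios among bins bound in sorbitol, and *SUB1*. The members, lists, and thresholds were chosen with earlier results of these data known. Positions are those listed in the files. Gene names rest on genotypes, RNA of *sub1*Δ, and the chromosomes and gene order of R64, none of whose coordinates were used. Bar-Seq counts were not used.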

Additional observations from a re-analysis of the deposited data

Results flagged for a closer look

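The α-factor library, which served only for reference, held signal in the 3 runs that stood out in sorbitol. At the *URA3* run on chromosome V its median scaled signal was 1.40, against 0.322 in the untagged library and 0.197 in the untreated cells. In the chromosome XII runs of 17 and 20 bins it was 3.56 and 3.06, against 1.07 and 0.928 in the untagged library and 2.62 and 1.61 in the untreated cells. What these runs come from was not tested.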

How the results depend on the processing

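No paired analysis was possible because each ChIP-Seq condition has 1 library, and leaving out a replicate was not possible for the same reason. Of 52 values recomputed under other settings, 42 stayed close to the value above and 10 moved. Close meant within 1.5 times for shares. For ratios it meant within 0.0736, and for signal retained within 12.2 percentage points. Both limits are the counting error of a single bin of median depth, which is wide for medians over many bins. With scaling to total reads, 5.25% of bins were bound without sorbitol instead of 12.9%, 18.1% of them were kept, and 23.2% of the bins bound in sorbitol were gained (11.8% with the median bin as the scale). With a limit of 3 times untagged, 4.42% and 0.673% of bins were bound and the median ratio was 0.341. At 4 times untagged these values were 2.14%, 0.378%, and 0.272, and 22.2% of the bins bound in sorbitol were gained. Windows of 500 bp, the untreated library as the control, a minimum of 50 untagged reads, added 0.1, and leaving out chromosome ends or, chosen after seeing the data, the raised blocks and the 2-micron plasmid, gave median ratios of 0.463 to 0.486. The signal retained was 12.3% to 14.6% over its 4 settings. The limits include the single library per condition, the lack of an external standard, and the labels of the pair. The depth of a median bound bin (468 reads without sorbitol and 227 in sorbitol) allows its ratio to lie between 0.385 and 0.532 from counting alone.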

Other observations

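Runs raised in 1 other tagged library only were also found. In the untreated library, 8 bins on chromosome XV from 721700 to 722400 had a median scaled signal of 2.94, against 1.68 without sorbitol, 1.33 in sorbitol, and 1.42 in the untagged library. Another run, 39 bins on chromosome VIII from 212400 to 216200, was instead high in every ChIP-Seq library. It had 6.43 in the untagged library, 9.27 without sorbitol, 6.78 in sorbitol, 8.27 in the untreated cells, and 9.06 with α-factor.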
